A study of Mus musculus with 9 samples.

Results

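The 8 genes described here encode effectors that macrophages make against microbes: Acod1, Nos2, Gch1, Ass1, Arg1, Arg2, Saa3 and Sod2. They were taken by symbol from a table of 55450 gene identifiers, and all 8 were found. RNA was sequenced from IMM cells, an immortalized mouse macrophage line of WT genotype, before lipopolysaccharide (0 min, the control, with the treatment given as none) and after 30 and 60 min of lipopolysaccharide (LPS) at 100 ng/mL. Each time has 3 libraries that the design text calls biological replicates, 9 in all. LPS is a surface component of Gram-negative bacteria. All groups share the same medium, which holds heat-inactivated serum. The series was set up to follow the transcriptome through the first hour. It holds no library left without LPS for 30 or 60 min, so LPS, handling and elapsed time changed together and cannot be told apart. The line is a cultured, immortalized model, and how it was immortalized is not given in the sources used here.

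As background, these genes meet at a few small molecules. Acod1 turns the Krebs cycle intermediate cis-aconitate into itaconate, which acts against bacteria and on the macrophage itself. Nos2 makes nitric oxide from arginine with tetrahydrobiopterin as a cofactor, Gch1 starts the synthesis of that cofactor, Ass1 helps to rebuild arginine from citrulline, and the arginases Arg1 and Arg2 take arginine away by turning it into ornithine and urea. Saa3 is a secreted serum amyloid A protein, and Sod2 is the mitochondrial superoxide dismutase, which turns superoxide into hydrogen peroxide.

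Depth was even. Library totals ran from 26867428 to 30402308 counts, and a count of 10 was worth 0.324 to 0.367 CPM, the unit in which levels are given: counts after all libraries are brought to the same size. All 8 macrophage markers were detected, with a summed level of 1780 to 1855 CPM at 0 min, 1940 to 1954 CPM at 30 min and 1994 to 2098 CPM at 60 min. Cd14, a marker that LPS itself induces, is part of that sum and had 22.3 ± 1.51 CPM at 0 min, 88.9 ± 13.0 CPM at 30 min and 136 ± 9.45 CPM at 60 min (SD, n = 3 each). The 5 hepatocyte markers Alb, Apoa1, Ttr, Cps1 and Otc, checked because liver is a rich source of Arg1 and of serum amyloid A, had 0 counts in every library, which allows up to 3 counts a library. Of 8 neutrophil markers, Ly6g, S100a9 and Retnlg were at 0 everywhere, and the summed level of the list was 5.71 to 6.97 CPM, nearly all from Csf3r.

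RefSeq promoter windows on GRCm38.p6, from 250 bases before to 50 bases after the transcription start, were found for 5 of the 8 genes: Acod1, Saa3, Gch1, Sod2 and Ass1. Nos2, Arg1 and Arg2 had no window in the table. The windows are printed because 4 of these genes rose with LPS and the fifth, Ass1, did not pass the test. They are given 5′ to 3′ on the gene's own strand, and capitals mark matches to the motifs searched on both strands.

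Acod1 (chr14:103046762-103047061, plus strand): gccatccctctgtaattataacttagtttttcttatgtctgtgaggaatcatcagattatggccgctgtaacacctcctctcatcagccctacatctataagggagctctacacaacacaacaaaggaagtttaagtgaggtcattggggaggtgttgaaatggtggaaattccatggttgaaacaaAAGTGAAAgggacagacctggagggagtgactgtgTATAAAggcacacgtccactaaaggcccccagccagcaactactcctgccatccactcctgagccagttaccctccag
Saa3 (chr7:46715627-46715926, minus strand): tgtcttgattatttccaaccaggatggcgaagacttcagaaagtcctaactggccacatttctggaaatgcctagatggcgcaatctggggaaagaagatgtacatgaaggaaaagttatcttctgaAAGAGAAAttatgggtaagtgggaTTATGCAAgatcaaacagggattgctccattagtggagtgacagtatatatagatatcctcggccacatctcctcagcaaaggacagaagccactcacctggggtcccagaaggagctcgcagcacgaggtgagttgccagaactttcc
Gch1 (chr14:47189364-47189663, minus strand): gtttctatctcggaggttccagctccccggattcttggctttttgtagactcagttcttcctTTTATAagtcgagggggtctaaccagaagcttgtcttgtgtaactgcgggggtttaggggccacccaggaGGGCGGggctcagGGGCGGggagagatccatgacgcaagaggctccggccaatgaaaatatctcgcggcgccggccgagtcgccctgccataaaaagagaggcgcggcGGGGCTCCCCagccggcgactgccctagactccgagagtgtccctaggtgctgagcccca
Sod2 (chr17:13007589-13007888, plus strand): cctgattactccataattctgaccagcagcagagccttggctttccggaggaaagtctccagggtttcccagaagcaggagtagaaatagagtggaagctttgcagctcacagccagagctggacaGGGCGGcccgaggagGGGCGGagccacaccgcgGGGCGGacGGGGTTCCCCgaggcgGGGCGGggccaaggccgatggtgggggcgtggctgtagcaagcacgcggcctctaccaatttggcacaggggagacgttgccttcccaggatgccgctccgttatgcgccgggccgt
Ass1 (chr2:31470020-31470319, plus strand): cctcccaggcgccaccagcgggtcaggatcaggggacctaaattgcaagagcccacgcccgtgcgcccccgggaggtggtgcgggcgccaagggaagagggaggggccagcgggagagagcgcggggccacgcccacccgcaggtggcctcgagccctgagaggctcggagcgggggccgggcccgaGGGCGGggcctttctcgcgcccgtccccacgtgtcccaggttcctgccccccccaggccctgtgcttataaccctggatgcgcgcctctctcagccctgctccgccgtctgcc

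The windows of Gch1 and Sod2 each held a match to the κB consensus, the site type of the NF-κB factors that act downstream of LPS receptors. Counting bases from the transcription start, it began at -10 in Gch1 and at -83 in Sod2, there on both strands at once. Of 32851 promoter windows of the same length, 4.51% held a κB match. Acod1 had an IRF match (AANNGAAA, in 23.9% of all windows) beginning at -63 and a TATA box (TATAAA, in 13.6%) beginning at -28. Saa3 had an IRF match at -123 and a C/EBP match (TTGCNNAA, in 10.8%) at -99, on the opposite strand.

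GC boxes (GGGCGG, in 35.7% of all windows) numbered 4 in Sod2, 2 in Gch1 and 1 in Ass1. In Sod2 they flanked the κB match and did not overlap it. Gch1 also held a TATA box match on the opposite strand, at -188. None of the 5 windows held the AP-1 letters TGANTCA (7.81% of all windows) or the CRE letters TGACGTCA (1.79%). The RefSeq start of Sod2 lies downstream of the first base of its GENCODE gene model, which holds 8 transcripts. The windows differed in base composition, with a GC content of 47% in Acod1, 46% in Saa3, 60.3% in Gch1, 64.3% in Sod2 and 74% in Ass1. A match is a description of the letters and not a measured binding site.

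**Figure D1:**
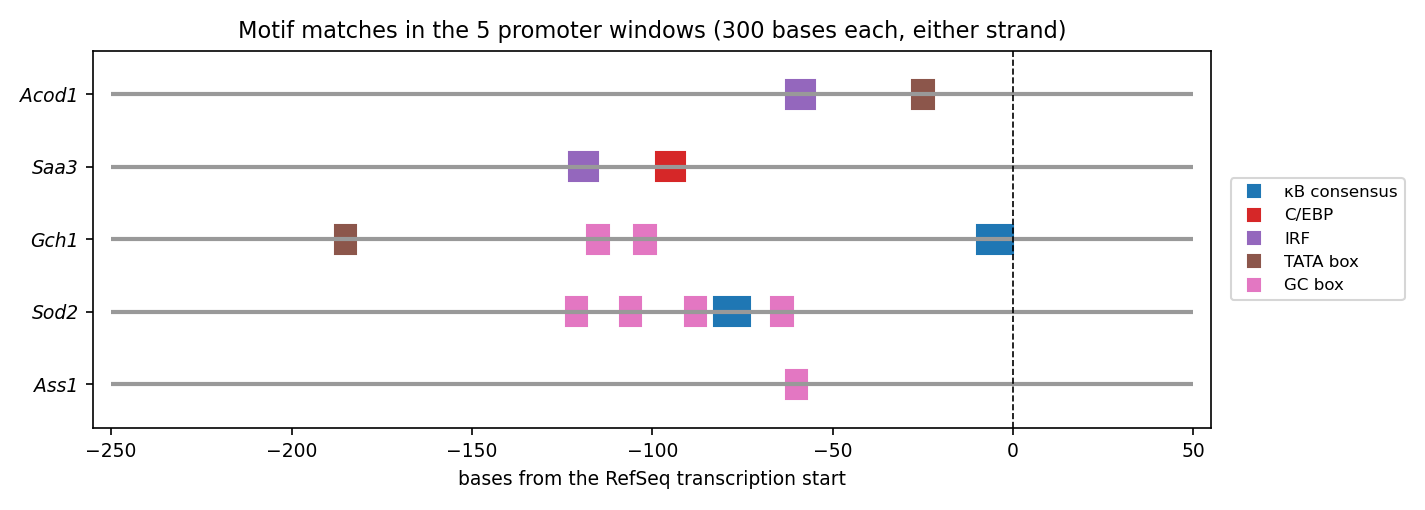
Positions of motif matches in the promoter windows of 5 genes, in bases from the RefSeq transcription start (dashed line), with each motif in its own colour. Gch1 and Sod2 carry the κB matches, and Acod1 and Saa3 the IRF matches.

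The 3' untranslated regions of the 8 genes differed in the number of ATTTA pentamers, the core of the AU-rich elements through which many short-lived mRNAs are marked for decay. The longest annotated one held 12 in Sod2, 7 in Gch1, 3 each in Nos2 and Saa3, 1 each in Acod1, Arg1 and Arg2, and 0 in Ass1. Over 21022 coding genes the median was 1, and 21.64% of genes had 5 or more. The counts were not scaled to length, and the region was 4963 bases long in Sod2 and 255 bases in Ass1.

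Acod1, Saa3, Gch1 and Sod2 rose at both times, and each rose again between 30 and 60 min. Nos2 was also called higher in each comparison, but its call at 30 min against 0 min did not hold in every alternative. Ass1 passed the test in no comparison, and Arg1 and Arg2 had too few counts for the test. Changes were tested with edgeR's quasi-likelihood test over the 14246 genes with enough counts, and a gene was called at a Benjamini-Hochberg adjusted p under 0.05, with no minimum fold. At 30 min against 0 min, 5 of the 8 genes were called higher, where 4.84% of all genes tested were. That number was 4 in limma-voom and 4 to 5 when a library was left out. Nos2 was the gene that lost its call. At 60 min against 0 min, 5 of 8 rose, against 13.3% of all genes, and at 60 min against 30 min 5 of 8 rose, against 8.87%. The 5 called against 0 min include Nos2 and Saa3. Both reached the minimum count of the test through the LPS libraries, where they are high, so the numbers higher against 0 min are a description. Lower calls were made for 0 of the 8 genes in edgeR in each comparison, while 3.35% of all genes were called lower by 30 min, 11.7% over the whole hour and 7.65% between 30 and 60 min. The number lower was 0 also at an unadjusted p under 0.05, in DESeq2 and in limma-voom.

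The 6 genes in the fit had a median log2 fold change of 1.18 by 30 min, 2.70 over the whole hour and 1.52 between 30 and 60 min. Over all genes tested the medians were 0.0062, 0.00095 and 0.0012 in the same order. The medians of the 6 genes are a description only: they leave out Arg1 and Arg2, and Nos2 reached the minimum count of the test (about 10 counts, or 0.349 CPM) through the LPS libraries, in 0 of 3 libraries at 0 min and in 3 of 3 at each later time. Saa3 reached it in 1 of 3 libraries at 0 min and in all 3 at each later time. In bulk RNA, more cells responding and more RNA per cell cannot be told apart, nor can fewer cells and less RNA per cell. The p-values measure the spread between these libraries, and nothing beyond the label says how separate the cultures were.

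**Figure D2:**
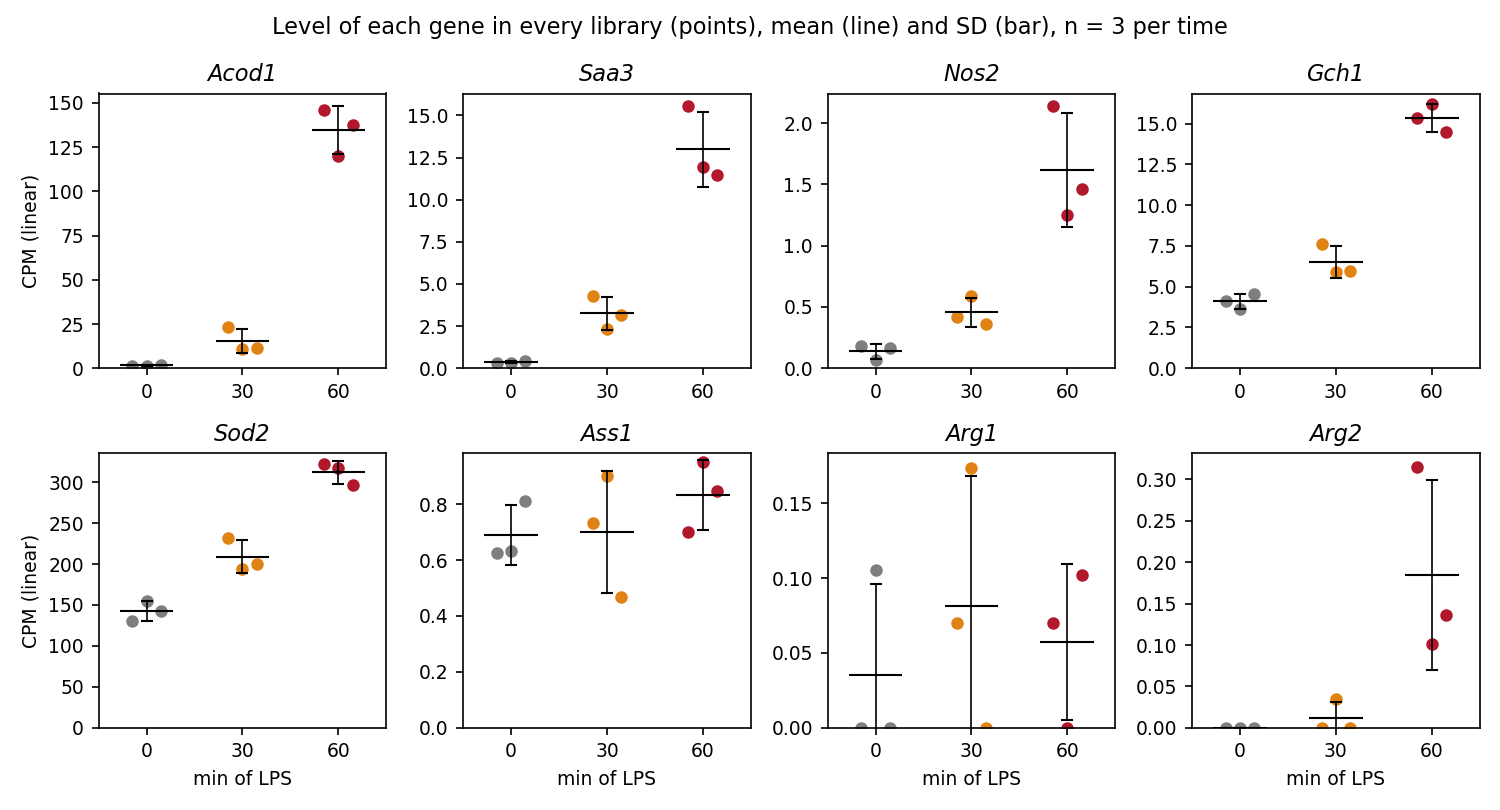
Level in CPM (linear axes, each from 0) of each of the 8 genes in every library (points) at 0, 30 and 60 min, with the mean (line) and SD (bar) of 3 libraries. Acod1 stood between 120 and 146 CPM at 60 min, Ass1 overlapped at all 3 times, and Arg1 and Arg2 had 9 counts or fewer in any library.

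Acod1 (ENSMUSG00000022126.6, 5 exons, chr14:103046977-103056573 on the plus strand of GRCm38) changed most of the 6 genes tested. It had 1.50, 1.37 and 2.04 CPM at 0 min, 23.0, 10.8 and 11.7 CPM at 30 min, and 146, 120 and 137 CPM at 60 min. The 3 times did not overlap, and 1 library at 30 min stood at about the sum of the other two. The means were 1.64 ± 0.357 CPM at 0 min, 15.2 ± 6.81 CPM at 30 min and 134 ± 13.4 CPM at 60 min (SD, n = 3 each).

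Acod1 was 9.18-fold higher at 30 min than at 0 min, a log2 fold change of 3.20 ± 0.32 (SE; edgeR adjusted p = 9.06e-06). At 60 min it was 81.2-fold higher than at 0 min (95% interval 57.4 to 115), a log2 fold change of 6.34 ± 0.26 with an edgeR adjusted p of 2.35e-10. That change stood at the 99.94 percentile of the 14246 genes. From 30 to 60 min the log2 fold change was 3.14 ± 0.18 (edgeR adjusted p = 5.59e-08), an 8.84-fold difference. The fold changes of the earlier and the later 30 min were close, and in CPM 10.2% of the hour's gain was present at 30 min.

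Nos2 (ENSMUSG00000020826.8, 27 exons, chr11:78920787-78960254, plus strand), the inducible nitric oxide synthase, was near the detection limit before LPS and entered the test through its LPS libraries, where it is high. It had 5, 2 and 5 counts at 0 min, 12, 17 and 10 counts at 30 min, and 61, 37 and 43 counts at 60 min. Every library at a later time had more counts than every library at an earlier one, yet even at 60 min the mean was 1.62 ± 0.463 CPM, after 0.139 ± 0.0601 CPM at 0 min and 0.457 ± 0.119 CPM at 30 min (SD, n = 3 each).

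At 60 min Nos2 was 11.3-fold higher than at 0 min, a log2 fold change of 3.50 ± 0.37 (SE). It met the minimum count only in LPS libraries, so its changes against 0 min are given as a description. At 30 min Nos2 was 3.23-fold higher than at 0 min, with a log2 fold change of 1.69 ± 0.46. The edgeR adjusted p of that change, 0.035, is printed only because the alternatives below are set against it. From 30 to 60 min, where all libraries met the minimum count, Nos2 was 3.51-fold higher. The log2 fold change was 1.81 ± 0.30 (edgeR adjusted p = 0.000752). The sums behind the 30 min change are 39 counts at 30 min and 12 at 0 min, a ratio of 3.30 with a 95% counting interval of 1.69 to 6.93. The 30 min call was lost in edgeR without 0 min replicate 1 (adjusted p = 0.0646), replicate 2 (0.130) or replicate 3 (0.0669), without 30 min replicate 1 (0.0649) or replicate 2 (0.131), and in limma-voom (0.0504). Over the 15 alternatives run the adjusted p ran from 0.00492 to 0.131. The log2 fold change lay between 1.39 and 1.92 when libraries were left out.

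The other nitric oxide synthase genes were not called. Nos1, the neuronal form, had 1.41 ± 0.429 CPM at 0 min, 1.37 ± 0.251 CPM at 30 min and 1.36 ± 0.402 CPM at 60 min, and was not called in edgeR. Its log2 fold change at 60 min against 0 min was -0.05, but positive without 0 min replicate 1 or 3 or 60 min replicate 2, so it has no settled direction. Nos3, the endothelial form, had 0 counts in every library, which allows up to 3 counts a library.

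Gch1 (ENSMUSG00000037580.10, 6 exons, chr14:47153895-47189413, minus strand), GTP cyclohydrolase 1 and the first enzyme of tetrahydrobiopterin synthesis, rose more slowly. It had 4.11, 3.62 and 4.58 CPM at 0 min, 7.62, 5.93 and 5.96 CPM at 30 min, and 15.4, 16.2 and 14.5 CPM at 60 min, with no overlap between times. At 60 min it was 3.73-fold higher than at 0 min, a log2 fold change of 1.90 ± 0.11 (SE; edgeR adjusted p = 1.19e-08).

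At 30 min Gch1 was 1.58-fold higher than at 0 min, with a log2 fold change of 0.66 ± 0.12 and an edgeR adjusted p of 0.00291. The log2 fold change of 60 min against 30 min was 1.24 ± 0.11 (edgeR adjusted p = 1.99e-06), and 21.4% of the hour's gain in CPM was present at 30 min. Gchfr, which encodes the feedback regulator of the Gch1 enzyme, was not called in any comparison, at 1.97 ± 0.402 CPM at 0 min, 2.32 ± 0.344 CPM at 30 min and 2.52 ± 0.277 CPM at 60 min. An intron of Gch1 holds the processed pseudogene Gm18811 on the same strand, at chr14:47177883-47178546, and shares no exon base with Gch1.

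Of the genes that rebuild arginine or turn it into ornithine, Ass1 and Asl were not called in the main test. Arg1 and Arg2 had too few counts for it. Ass1 (ENSMUSG00000076441.9, 16 exons, chr2:31470207-31520672, plus strand), argininosuccinate synthase, had 0.623, 0.633 and 0.811 CPM at 0 min, 0.734, 0.902 and 0.469 CPM at 30 min, and 0.701, 0.949 and 0.848 CPM at 60 min. The 3 times overlapped, and the lowest and the second highest library both belonged to 30 min. At 60 min against 0 min the fold was 1.20 with a 95% interval of 0.823 to 1.76 (edgeR adjusted p = 0.542), so a rise of the size seen in Sod2 or Gch1 lies outside it, while a smaller change in either direction does not. At 30 min against 0 min the fold was 1.02 (0.688 to 1.50; edgeR adjusted p = 0.976).

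Asl, the lyase that acts after Ass1, had 18.2 ± 1.54 CPM at 0 min, 19.8 ± 1.25 CPM at 30 min and 19.5 ± 1.28 CPM at 60 min and was not called. Slc7a2, a cationic amino acid transporter that carries arginine into macrophages, was at 81.2 ± 4.35 CPM at 0 min, 80.2 ± 1.93 CPM at 30 min and 83.0 ± 2.02 CPM at 60 min, also not called, and the sign of its small change turned with scaling by total counts. Slc7a1, a second such transporter, averaged 528 ± 7.34 CPM at 60 min and 457 ± 7.21 CPM at 0 min and rose, by a log2 fold change of 0.21 ± 0.03 (edgeR adjusted p = 0.000175).

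Arg1 (ENSMUSG00000019987.9, 8 exons, chr10:24915221-24927484, minus strand), the cytosolic arginase, was almost absent. It had 0, 3 and 0 counts at 0 min, 2, 5 and 0 counts at 30 min, and 2, 0 and 3 counts at 60 min. Each time had at least 1 library with no count, so no difference was detectable at this depth. The ratio of the summed counts at 60 min against 0 min was 1.65, with a 95% counting interval of 0.321 to 10.6.

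Arg2 (ENSMUSG00000021125.6, 8 exons, chr12:79130777-79156301, plus strand), the mitochondrial arginase, had 0 counts in all 3 libraries at 0 min, 0, 1 and 0 counts at 30 min, and 9, 3 and 4 counts at 60 min. All 3 libraries at 60 min stood above every library at the earlier times. For the 16 counts at 60 min against 0 at 0 min, the ratio was 5.28 with 3 counts over the group as the limit that a count of 0 allows. The counting error of the 16 counts is not in that ratio, so it is not a 95% lower limit. Against the single count at 30 min the ratio was 15.6, with a 95% counting interval of 2.42 to 653.

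Arg2 was below the minimum count of the main test. The exact permutation test of its CPM at 60 min against 0 min gave a two-sided p of 0.1, the smallest that 3 against 3 libraries allow. With no minimum count, edgeR called it higher at 60 min against 0 min (adjusted p = 0.00548) and at 60 min against 30 min (adjusted p = 0.0464). That fit estimated a smaller spread: the SE of the log2 fold change of Saa3 at 30 min against 0 min was 0.21 in it, against 0.29 with the minimum count. The last 285 bases of Arg2 overlap exons of Vti1b on the opposite strand, which had 27.0 ± 0.410 CPM at 0 min, 29.0 ± 0.908 CPM at 30 min and 28.9 ± 0.666 CPM at 60 min. Another 116 exon bases are shared with the antisense gene Gm48780. Whether the counting used the strand is not given in the sources used here, so the few Arg2 counts remain uncertain, and the part that Vti1b reads could have in them was not tested.

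Saa3 (ENSMUSG00000040026.8, 4 exons, chr7:46711998-46715700, minus strand), the serum amyloid A gene that mouse macrophages express, rose nearly as steeply as Acod1 by 30 min. It had 0.330, 0.316 and 0.454 CPM at 0 min, from 9, 9 and 14 counts, then 4.26, 2.32 and 3.18 CPM at 30 min, and 15.5, 11.9 and 11.5 CPM at 60 min. Even the lowest library at 30 min lay above the highest at 0 min by a wide gap, and 60 min did not overlap 30 min.

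At 30 min Saa3 was 8.72-fold higher than at 0 min, a log2 fold change of 3.12 ± 0.29 (SE). At 60 min it was 34.7-fold higher than at 0 min (95% interval 24.8 to 48.6), with a log2 fold change of 5.12 ± 0.25. Saa3 reached the minimum count in 1 of 3 libraries at 0 min and in all 3 at each later time. It thus entered the test through the LPS libraries, where it is high, so its changes against 0 min are given as a description with no p. From 30 to 60 min the log2 fold change was 1.99 ± 0.18 (edgeR adjusted p = 2.34e-06), below the 3.12 of the first 30 min, and those 2 changes share the 30 min libraries and were not compared by a test. The 3 other serum amyloid A genes listed, Saa1, Saa2 and Saa4, had 0 counts in every library, which allows up to 3 counts a library for each.

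Sod2 (ENSMUSG00000006818.5, 7 exons, chr17:13006846-13040063, plus strand) was abundant before LPS and had the smallest fold change of the 5 genes that rose. It had 131, 155 and 142 CPM at 0 min, 232, 194 and 201 CPM at 30 min, and 323, 317 and 296 CPM at 60 min, with no overlap between times. At 60 min it was 2.19-fold higher than at 0 min, a log2 fold change of 1.13 ± 0.07 (SE; edgeR adjusted p = 1.17e-08).

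On the log2 scale, though not in CPM, the rise of Sod2 was close to even over the hour. Its log2 fold change was 0.55 ± 0.07 at 30 min against 0 min (edgeR adjusted p = 7.49e-05) and 0.58 ± 0.07 at 60 min against 30 min (edgeR adjusted p = 2.79e-05), and 39.2% of the hour's gain in CPM was present at 30 min. In CPM its gain of 169 by 60 min exceeded the 133 of Acod1, although its fold change was far smaller. Sod1, the cytosolic enzyme, had 178 ± 2.56 CPM at 0 min, 166 ± 2.39 CPM at 30 min and 168 ± 1.64 CPM at 60 min. All its LPS libraries lay below those at 0 min, but it was not called in edgeR at 60 min against 0 min (log2 fold change -0.08 ± 0.03, adjusted p = 0.079). With total counts as the only scaling it was called lower there (adjusted p = 0.00302; range over 16 alternatives 0.00302 to 0.181). Sod3, the secreted enzyme, had 0 counts throughout, which allows up to 3 counts a library.

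**Figure D3:**
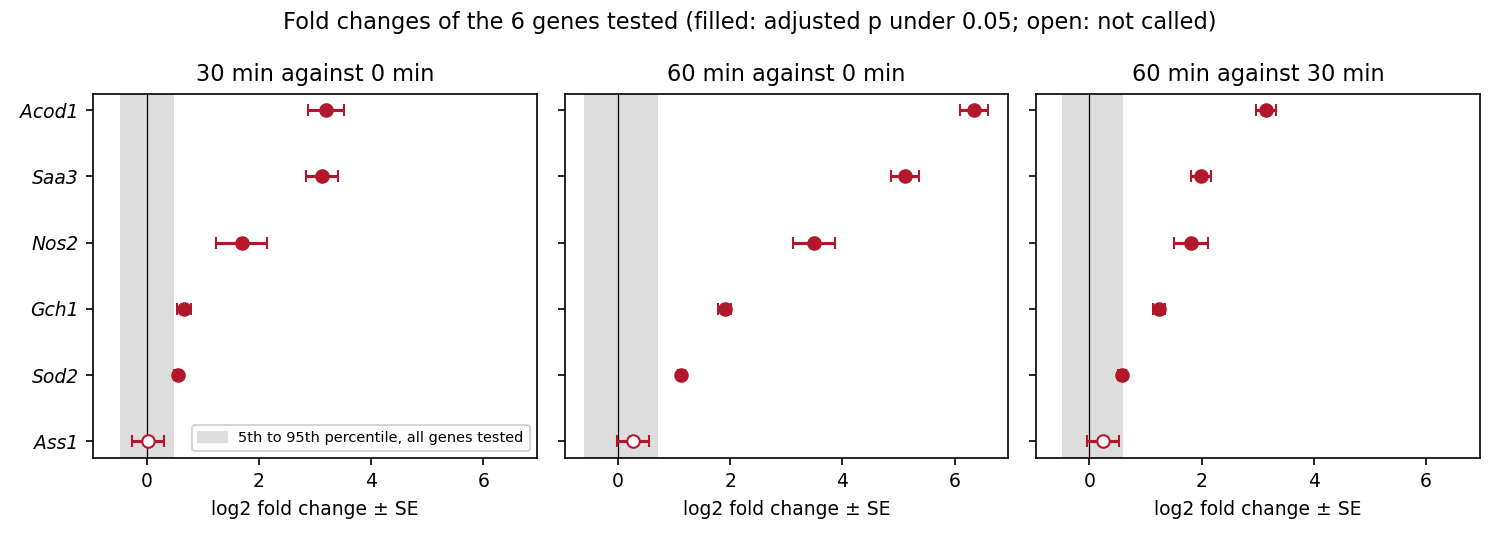
Log2 fold change ± SE of the 6 genes tested, by gene, in 1 panel for each of the 3 comparisons; filled points were called by edgeR, and the grey band spans the 5th to 95th percentile of all 14246 genes. Acod1 lies farthest right at 60 min against 0 min, at 6.34, and Ass1 lies inside the band in all 3 panels.

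Most of the gain in CPM came after 30 min for each of the 5 genes that rose: 10.2% of the hour's gain was present at 30 min for Acod1, 21.4% for Gch1, 21.5% for Nos2, 22.9% for Saa3 and 39.2% for Sod2. At 30 min, replicate 1 was the highest library for Acod1, Saa3, Gch1 and Sod2, while for Nos2 it was replicate 2. Without 30 min replicate 1 the log2 fold changes of 30 min against 0 min were 2.77 for Acod1, 2.88 for Saa3, 0.53 for Gch1 and 0.47 for Sod2, and these 4 calls held. No label sets that library apart from the other two of its time.

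Levels were compared between genes per length, as mean CPM per kilobase of all annotated exons. At 0 min Sod2 led at 14.2, followed by Gch1 at 0.656 and Acod1 at 0.625, whose libraries overlapped, then Ass1 at 0.285 and Saa3 at 0.141. Nos2 at 0.0314 overlapped Arg1 at 0.0158, and Arg2 was listed at 0. Before LPS, then, Sod2 stood far above the other 7 genes.

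At 30 min Sod2 was at 20.9 CPM per kilobase and Acod1 at 5.79, while Saa3 at 1.25 and Gch1 at 1.04 overlapped. Below them lay Ass1 at 0.291, Nos2 at 0.104, and Arg1 and Arg2 with overlapping libraries. At 60 min Acod1 was at 51.3, Sod2 at 31.2, Saa3 at 4.98 and Gch1 at 2.45, with no overlap between neighbours. Nos2 at 0.367 overlapped Ass1 at 0.345, and Arg2 at 0.129 and Arg1 at 0.0257 came last.

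The order of Acod1 and Sod2 at 60 min depended on the length used. The exons of Sod2 add up to 10008 bases over 8 transcripts, but its median coding transcript has 3156 bases, and the single transcript of Acod1 has 2623 bases. Per kilobase of median coding transcript, a choice added after the values were seen, Sod2 had 98.9 and Acod1 51.3 CPM at 60 min. The ratio of Acod1 to Sod2 at 0, 30 and 60 min was 0.0439, 0.277 and 1.64 with all exons, and 0.0138, 0.0874 and 0.519 with the median coding transcript, so that its increase with time did not depend on the choice.

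**Figure D4:**
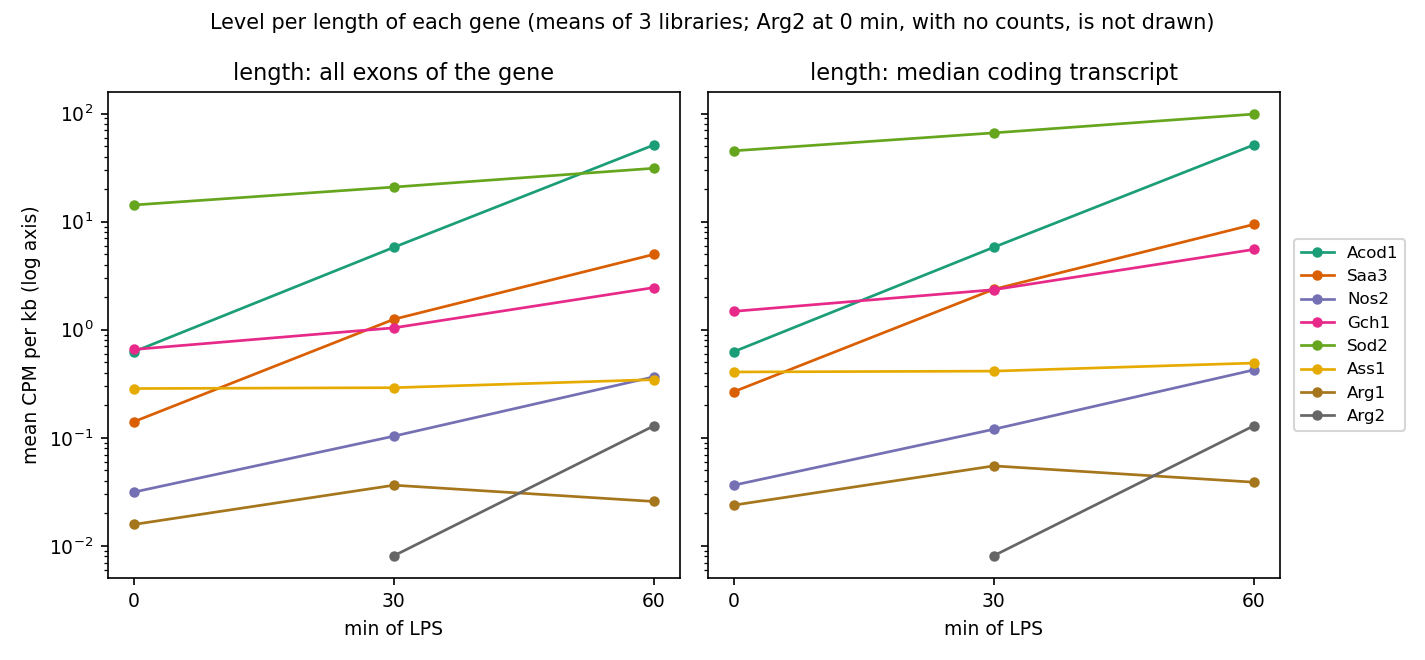
Mean level of each gene at 0, 30 and 60 min in CPM per kilobase (log axis; 3 libraries per time), with length taken as all exons (left) or as the median coding transcript (right). Acod1 passes Sod2 by 60 min on the left, at 51.3 against 31.2, and stays below it on the right, at 51.3 against 98.9.

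The pathway lists are read against the share of all genes called at 60 min against 0 min, 13.3% higher and 11.7% lower. Of 20 tested genes of arginine and nitric oxide metabolism, 4 were called higher and 1 lower, and 15 were not called, so higher calls were near the share among all genes. Besides Nos2, which entered the test through its LPS libraries, the higher calls were Odc1, Azin1 and Slc7a1. Odc1, which turns ornithine into putrescine, averaged 370 ± 4.51 CPM at 60 min and 291 ± 7.15 CPM at 0 min, a log2 fold change of 0.34 ± 0.04 (edgeR adjusted p = 8.10e-06). Azin1, which spares Odc1 from degradation, had a log2 fold change of 0.29 ± 0.05. The 18 genes of the list other than Nos2 and Ass1 had a median log2 fold change of 0.06.

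The lower call was Ddah2, an enzyme that breaks down methylarginines, natural inhibitors of nitric oxide synthases; it was singled out after its values were seen. It had 27 counts summed over 60 min and 69 over 0 min. It entered the test through the 0 min libraries, since 0 of 3 libraries at 60 min and 1 of 3 at 30 min reached the minimum count, so its call is given as a description with no p. At 30 min against 0 min the list held 2 higher calls, Nos2 and Oat, and 1 lower call, Ddah2, where 4.84% of all genes were called higher and 3.35% lower. The higher calls there numbered 0 without 0 min replicate 1 or 30 min replicate 1, and 1 without 0 min replicate 2 or 3 or 30 min replicate 2. The lower call was lost without 0 min replicate 2 or 3 or 30 min replicate 2 or 3, and in DESeq2.

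Of 7 tested genes of tetrahydrobiopterin synthesis and recycling, 1, Gch1, was called higher at 60 min against 0 min, where 13.3% of all genes were, and 6 were not called. Pts, which acts next after Gch1, was called higher at 60 min against 30 min, at 21.1 ± 0.968 CPM against 16.7 ± 0.823 CPM (log2 fold change 0.34 ± 0.07, edgeR adjusted p = 0.00295), but at 0 min it had 19.4 ± 1.31 CPM.

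Of 30 genes of itaconate metabolism and the Krebs cycle, 5 were called higher at 60 min against 0 min and 25 were not called. Without Acod1 that leaves 4 of 29, near the 13.3% of all genes. Acod1 rose 81.2-fold, while the log2 fold changes of the others were 0.19 for Pdhb, a pyruvate dehydrogenase subunit, 0.15 for Dld, 0.15 for the citrate carrier Slc25a1 and 0.12 for Idh3a, and the median of the 29 genes other than Acod1 was 0.03. The count of 5, which includes Acod1, fell to 3 without 0 min replicate 1 or 2, 30 min replicate 2 or 60 min replicate 1. It fell to 2, again with Acod1, without 60 min replicate 2. With total counts as the only scaling, 2 of the 30 were higher, Acod1 among them, and 3 lower. Of all 14246 genes tested, 1313 were called higher and 3048 lower with that scaling. Of the 29, Pdhb held its call in each of these, while Dld, Slc25a1 and Idh3a lost theirs in 1 or more.

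Of 23 genes of superoxide production and peroxide removal, 10 were called higher at 60 min against 0 min, and 9 of 22 without Sod2, where 13.3% of all genes were. Lower calls numbered 0, where 11.7% of all genes were called lower. Besides Sod2, Cybb, the catalytic subunit of the phagocyte NADPH oxidase, averaged 344 ± 9.88 CPM at 60 min and 198 ± 3.23 CPM at 0 min, a log2 fold change of 0.79 ± 0.04 (edgeR adjusted p = 6.03e-09). The oxidase subunit Ncf4 (0.27), the peroxiredoxin Prdx5 (0.30) and the mitochondrial iron carrier Slc25a37 (0.36) had smaller log2 fold changes. The median of the 22 genes other than Sod2 was 0.10. With total counts as the only scaling, 4 of the 23 genes were called lower, where 3048 of all 14246 genes tested were.

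Of 6 tested genes of the serum amyloid A and acute-phase list, 3 were called higher at 60 min against 0 min, where 13.3% of all genes were: Saa3, C3 and Lcn2. Complement C3 averaged 16.1 ± 2.15 CPM at 60 min and 9.34 ± 2.90 CPM at 0 min, a log2 fold change of 0.78 ± 0.17 (edgeR adjusted p = 0.004). Lcn2, which binds bacterial siderophores and was singled out after its values were seen, had 2 counts summed over 0 min, 3 over 30 min and 40 over 60 min. Lcn2 reached the minimum count in the 3 libraries at 60 min and in 0 of the other 6, so its call is given as a description with no p. Saa3 too entered the test through its LPS libraries. The other 10 genes of the list had too few counts for the test.

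Of 12 tested genes in a list of other antimicrobial effectors, 2 were called higher and 2 lower at 60 min against 0 min, near the 13.3% and 11.7% of all genes. Slpi, a secreted protease inhibitor with antimicrobial activity, averaged 3.18 ± 0.548 CPM at 60 min and 0.994 ± 0.292 CPM at 0 min, a log2 fold change of 1.66 ± 0.21 (edgeR adjusted p = 3.02e-05), and Cybb was the other that rose. The GTPases Irgm2 and Irgm1, which act at the vacuoles of intracellular pathogens, fell, by log2 fold changes of -0.94 ± 0.16 (edgeR adjusted p = 0.000641) and -0.36 ± 0.09 (edgeR adjusted p = 0.00866). Irgm2 averaged 2.13 ± 0.445 CPM at 60 min and 4.08 ± 0.378 CPM at 0 min.

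**Figure D5:**
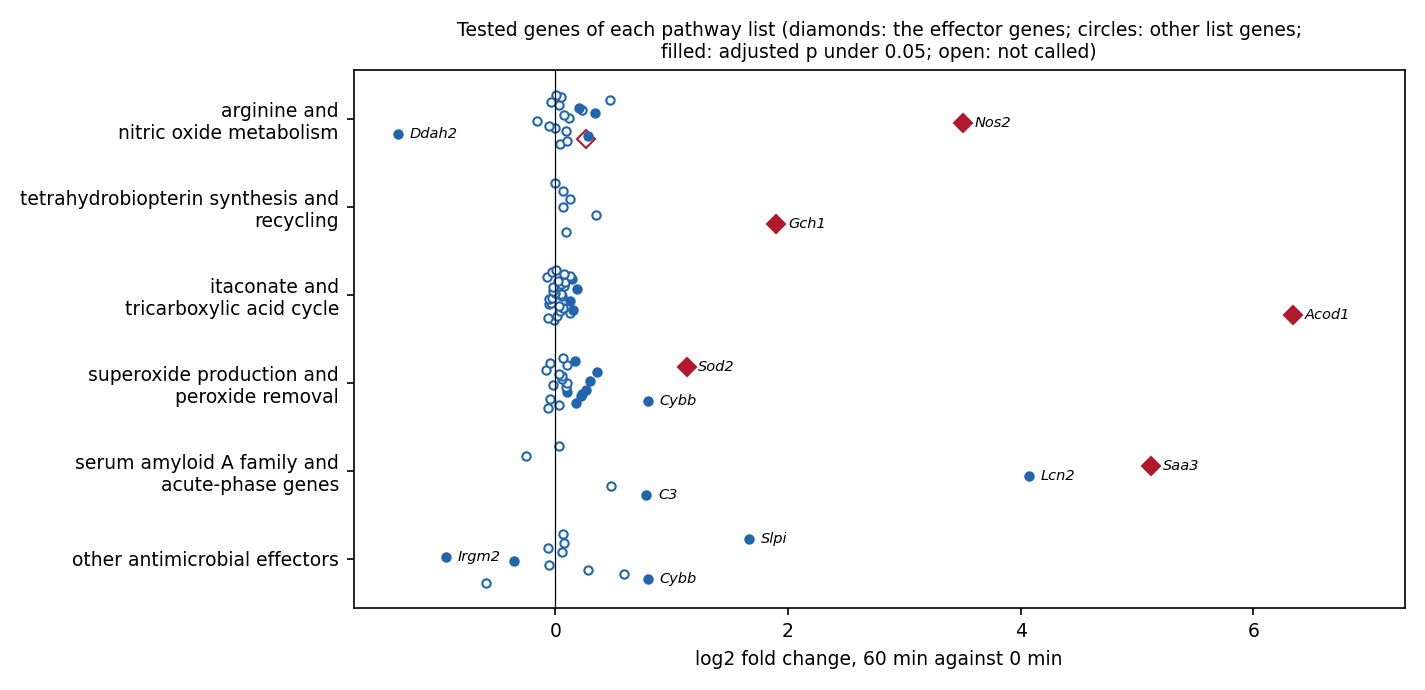
Log2 fold change at 60 min against 0 min of every tested gene of 6 pathway lists; diamonds are the effector genes described here, circles the other genes, and filled symbols were called by edgeR. Acod1, Saa3, Nos2, Gch1 and Sod2 lie to the right of most other genes of their lists, whose medians without the 8 genes were 0.06 for arginine and nitric oxide, 0.08 for tetrahydrobiopterin, 0.03 for itaconate and the Krebs cycle, 0.10 for superoxide and peroxide and 0.48 for the acute-phase list.

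Among 19 tested regulators that are known to act upstream of such effectors (NF-κB, IRF, STAT and C/EBP factors, Hif1a and Nfe2l2), 12 were called higher and 3 lower at 60 min against 0 min, where 13.3% and 11.7% of all genes were, with a median log2 fold change of 0.42. Nfkbiz, which encodes the nuclear cofactor IκBζ, averaged 602 ± 27.7 CPM at 60 min and 21.4 ± 0.888 CPM at 0 min, a log2 fold change of 4.82 ± 0.16 (edgeR adjusted p = 3.24e-11). Nfkbia, the inhibitor IκBα and itself an NF-κB target, had a log2 fold change of 4.36 ± 0.12, Irf1 of 2.72 ± 0.14 and Relb of 2.54 ± 0.11. Stat2 (-1.06), Cebpd (-0.57) and Irf8 (-0.29), named after their values were seen, fell. At 30 min against 0 min, 8 of the 19 were called higher and 2 lower, where 4.84% and 3.35% of all genes were.

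Acod1, Nos2, Saa3, Gch1 and Sod2 followed similar courses over the 9 libraries, with Pearson r of log2 CPM between 0.928 and 0.991 in their 10 pairs, while the pairs of Ass1 with them gave 0.324 to 0.455. These r describe the shared course over 3 time groups and are not tests. Among 10169 to 10170 genes that averaged at least 5 CPM at some time, those nearest to Acod1 were Zc3h12a, an RNase that degrades inflammatory mRNAs, Tnfaip2 and the phosphodiesterase Pde4b, each with r = 0.998. Nearest to Saa3 were the receptor Tlr2 (0.998), the chemokine Ccl4 (0.997) and the inflammasome sensor Nlrp3 (0.996). Nearest to Gch1 were the kinase Map3k8 (0.997), urokinase Plau (0.996) and Zbtb21 (0.995). Sod2 was nearest to the costimulatory ligand Cd86 (0.993), the histone demethylase Kdm6b (0.992) and Snx18 (0.992), and Nos2 to Pik3cb (0.990), Tbc1d9 (0.981) and Dnajb5 (0.979).

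In the authors' deposited table, Acod1 had log2 fold changes of 3.20 at 30 min and 6.35 at 60 min. In the authors' deposited table the 60 min values were 5.13 for Saa3, 1.90 for Gch1, 1.13 for Sod2 and 0.27 for Ass1. For Nos2 the authors' deposited table gave 3.54 at 60 min with an adjusted p of 2.91e-09, and 1.72 at 30 min with an adjusted p of 0.179, above the threshold at which edgeR had called it with 0.035. The authors' mean signal for Nos2 was 8.48 in the 30 min comparison and 25.4 in the 60 min comparison. Those comparisons thus did not share the same set of libraries, whereas the edgeR fit used all 9. Arg1 and Arg2 had no adjusted p in the authors' deposited table, where the log2 fold change of Arg2 at 60 min was 4.85.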

How the data were processed

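The upstream tools, per the submitters' processing notes, which give no roles, included cutadapt (1.18), STAR (2.7.0f) and RSEM (1.3.1), with build mm10. Their annotation and settings, strand among them, were not given in the sources used here. Libraries were made with a stranded, ribosomal-RNA-depleted total RNA kit, per the labels' protocols, so unspliced RNA is present beside mRNA. The authors deposited expected counts per gene, not normalized; RSEM divides reads that match several genes, and 5.04% to 5.32% of a library's values were not whole and were rounded. Beside these, 2 tables of the authors' comparisons per the file headers hold a mean signal (baseMean), a log2 fold change, scores (its SE and a Wald statistic) and a p-value with its adjusted form; their reference, 0 min, was inferred from the values.

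All 55450 of 55450 identifiers were found in GENCODE M21 (GRCm38). Promoter windows came from RefSeq on GRCm38.p6. Genes were kept by edgeR's filterByExpr (about 10 counts in 3 libraries), which left 14246. Totals were scaled by TMM (factors 0.9705 to 1.034), and CPM use these scaled totals. All 9 libraries entered 1 quasi-likelihood fit in edgeR 4.0.16 (R 4.3.3) with time as the only term, tested two-sided with Benjamini-Hochberg adjustment over all genes at 0.05. The biological coefficient of variation was 5.2%. The SE was obtained by dividing the size of the log2 change by the root of F. Intervals of ratios, and the limit of 3 counts set on a count of 0, cover counting error only, at 95%. Between replicate libraries the chi-square per gene had a mean of 4.93 to 18.3 and a median of 0.867 to 1.37, where sampling alone gives a median of 0.455. The test was checked on counts simulated with the spread estimated by the fit itself, for 60 min against 0 min only. Of 50 changed genes at each size, 30 were recovered at 1.5-fold, 39 at 2-fold, and 48 each at 4-fold and 8-fold. False calls numbered 7 of 172 calls. No outlying library was simulated, so the check does not cover one.

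The 8 genes, the pathway lists and the marker lists were chosen with earlier results of these data known. Named besides the 8 genes are at most 4 called genes of each list, those with the largest change at 60 min among genes of at least 1 CPM, fixed relatives and partners, and the 3 genes closest in course to each gene; other names are marked as chosen after their values were seen. Alternatives were DESeq2 size factors, total counts, no filter, a minimum count of 50, DESeq2 1.42.0, limma-voom 3.58.1, the replicate number as a block, each library left out, and a second gene length, which was added after the data were seen.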

Additional observations from a re-analysis of the deposited data

Results flagged for a closer look

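For 5 of the 8 genes the change at 60 min differed from the change at 30 min, tested in edgeR as 60 min against 30 min. All 5 were higher at 60 min, where 8.87% of all genes tested were called higher and 7.65% lower. The log2 fold change of that difference was 3.14 for Acod1, 1.99 for Saa3, 1.81 for Nos2, 1.24 for Gch1 and 0.58 for Sod2. In each of the 5 every library at 60 min lay above every library at 30 min, and the share of all genes with such a gap is not given here. Both changes are set against the same 0 min libraries, which the difference does not use.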

How the results depend on the processing

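Acod1, Saa3, Gch1 and Sod2 kept direction and call in every alternative run, as did Nos2 at 60 min, which a minimum count of 50 left untested; of the 8 genes, the number called higher was 4 to 5 at 30 min against 0 min and 5 in the other comparisons when a library was left out. Without 1 library, lower calls over all genes at 30 min against 0 min ran from 290 to 523, against 477 with all 9, with the counts 290, 310 and 305 without 0 min replicate 1, 30 min replicate 2 and 30 min replicate 3; with no filter they numbered 757. With total counts as the only scaling, lower calls numbered 3048 at 60 min against 0 min (median of all genes -0.07) and 1672 at 60 min against 30 min, and higher calls made up 30.1% and 37.5% of calls, against 53.1% and 53.7% with TMM; at 30 min against 0 min 45.9%, against 59.1%. The cause was not tested. The log2 fold change of Ass1 at 30 min against 0 min turned negative with total counts (-0.0025), in limma-voom (-0.013), and without 0 min replicate 1 (-0.04) or 2 (-0.03) or 30 min replicate 1 (-0.0066) or 2 (-0.20), with a range of -0.20 to 0.24 over the libraries left out. That of Nos1 at 60 min against 0 min turned positive without 0 min replicate 1 (0.09) or 3 (0.07) or 60 min replicate 2 (0.17), in a range of -0.28 to 0.17, and that of Slc7a2 turned negative with total counts (-0.036) and without 0 min replicate 3 (-0.0015), in a range of -0.0015 to 0.075. The ratio of Acod1 to Sod2 at 60 min was 0.519 with the median coding transcript. Replicate numbers did not pair the samples, judged on log2 CPM after the mean of its time was taken from each gene. These deviations had correlations of -0.06 to 0.0061 between same-numbered libraries of different times, and 0 of 9 libraries correlated best with their own number. With the replicate number as a block, 5 of the 8 genes were still higher in each comparison, and higher calls over all genes numbered 588 at 30 min against 0 min and 1720 at 60 min against 0 min. Depth limits Arg1, Arg2, Nos2 and Ass1, whose counts per library stayed at 61 or fewer.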

Other observations

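Gm18811, the processed pseudogene in an intron of Gch1, was looked at after its values were seen. Its 3 libraries summed to 8 counts at 0 min, 43 at 30 min and 48 at 60 min. It reached the minimum count of the test in 0 of 3 libraries at 0 min, 3 of 3 at 30 min and 2 of 3 at 60 min. Since it entered the test through the LPS libraries, where it is high, no test of it is given. The summed counts at 30 and 60 min were close, whereas Gch1 had 554 counts at 30 min and 1342 at 60 min. The library kit keeps unspliced RNA, and the part that Gch1 intron reads have in these counts was not tested. The other pseudogene in the Gch1 introns, Gm49134 on the opposite strand, had 0 counts in every library, which allows up to 3 counts a library.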
